A study of Mus musculus with 9 samples.

Results

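The genes described here carry the signal by which a lysosome reports its amino acid content to the kinase complex mTORC1. They were chosen by symbol from the deposited table: the lysosomal amino acid transporter genes Slc36a1 and Slc36a4, the Rag GTPase genes Rraga, Rragb, Rragc and Rragd, the folliculin gene Flcn, the kinase gene Mtor, its scaffold gene Rptor and the arginine sensor gene Castor1. All 10 symbols were found among 57180 genes, and all 10 passed the filter on low values. Whole hippocampus was taken from mice of 11 days on a C57BL6 background. 4 animals, 3 males and 1 female, had a knockout of Slc38a3 selective for endothelial cells (cKO), and 5, 1 male and 4 females, were wild type (WT). Slc38a3 encodes the glutamine transporter SNAT3. The Cre line, the exons removed and the litters are not named by the sources used, and a p-value therefore speaks only of the spread among these 9 samples, part of which may be technical.

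On the lysosomal surface, a Rag dimer pairs RagA or RagB with RagC or RagD. When amino acids are plentiful the dimer binds raptor, the product of Rptor, and so brings mTORC1 to the lysosome, where the kinase favours protein and lipid synthesis over autophagy. Folliculin acts on RagC and RagD, and through them on the factors TFEB and TFE3, which switch on lysosomal genes from an E-box in their promoters. In developing brain the pathway is known for its part in neuronal growth, and loss of its brakes causes epilepsy and cortical malformation in humans.

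Values are read counts per gene after scaling by 1 factor for each library (normalized counts), and the libraries held 32096409 to 34034530 reads in cKO and 30803135 to 33134405 in WT. The targeted gene, Slc38a3, averaged 351 ± 49.4 normalized counts over the 4 cKO libraries and 2821 ± 829.8 over the 5 WT libraries (SD). It fell by 2.99 ± 0.221 on the log2 scale (limma adjusted p = 5.54e-05), and an exact permutation test over all 126 assignments of the genotypes gave a two-sided p of 0.00794, the smallest this design allows. The lowest WT libraries for this gene were WT replicates 2 and 5, at 2033 and 1804 normalized counts. None of the marker genes of 10 cell types and regions was at 0 in every library, and the 6 hippocampal markers (among them Prox1 of the dentate gyrus and Wfs1 of CA1) summed to 28181 to 31742 normalized counts in cKO libraries and 31694 to 34755 in WT libraries.

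Slc36a1 was the member that passed an adjusted p under 0.05 between the genotypes. It encodes PAT1, a proton-coupled carrier that exports small neutral amino acids from lysosomes. It held 2693, 2423, 2646 and 2572 normalized counts in cKO replicates 1 to 4, against 2948, 2935, 3076, 3017 and 3115 in WT replicates 1 to 5. Every cKO library lay below every WT library, and the lowest was cKO replicate 2, the only cKO female. The gene (ENSMUSG00000020261, chromosome 11, 55095175 to 55127156 in GRCm39) averaged 2583 ± 118 over 4 cKO libraries and 3018 ± 78.4 over 5 WT libraries (SD), and fell 1.19-fold as fitted with sex in the model.

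The log2 fold change of Slc36a1 was -0.25 ± 0.0468 (SE, 95% interval -0.35 to -0.14, limma-trend adjusted p = 0.0420). Of the 10 genes it was the 1 that passed an adjusted p under 0.05, a threshold that 0.346% of the 17036 genes tested passed, 0.223% lower and 0.123% higher in cKO. It ranked 57th by p among 59 such genes, and its call had been seen in earlier work on this table, so the choice of members is not independent of it. The exact permutation test, which takes no account of sex, gave a two-sided p of 0.00794 and restates the lack of overlap, found in 6.29% of all genes tested. Leaving out any 1 of the 9 libraries ended the call, with adjusted p-values of 0.0582 to 0.537. Without WT replicates 2 and 5, the WT libraries with the least Slc38a3, the value was -0.24 (limma adjusted p = 0.238). With 1 library left out, the difference itself stayed between -0.16 (without cKO replicate 2) and -0.32 (without WT replicate 1). With sex in the model, each of these omissions leaves a single sex to set the genotype term. These values are therefore those of males only and females only. The edgeR test on recovered reads gave -0.24 (adjusted p = 0.0553) and DESeq2 gave -0.24 (adjusted p = 0.00164).

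**Figure D1:**
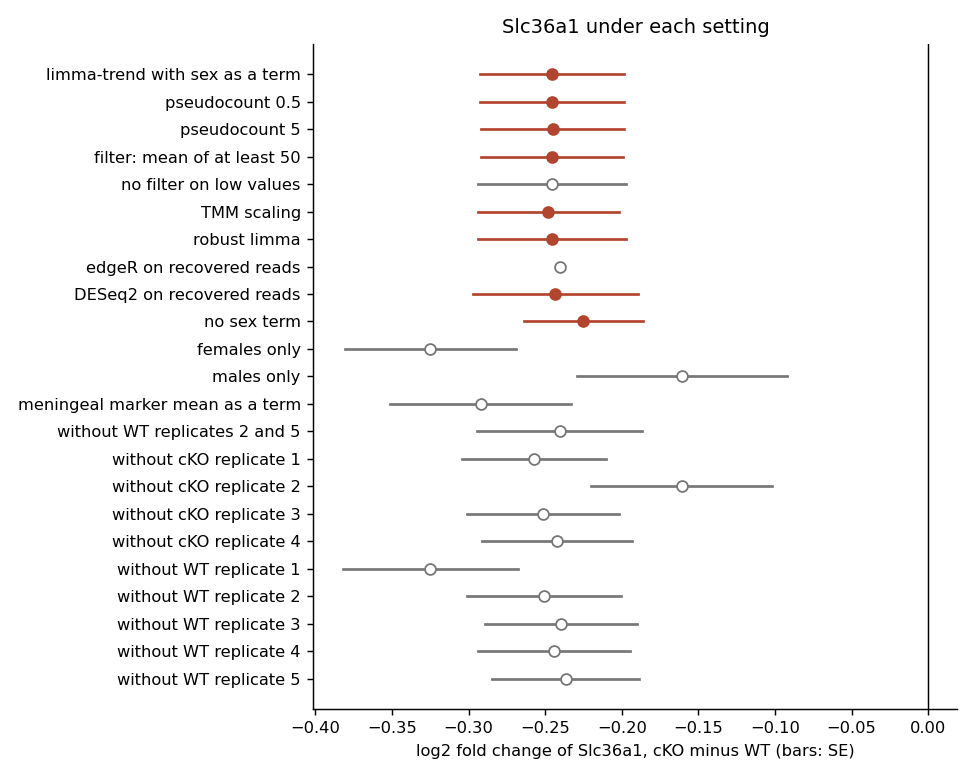
Log2 fold change of Slc36a1 (cKO minus WT, x axis) under each model, filter, scaling or set of libraries (rows). Points are estimates, bars are the SE where the tool gives one, and filled red points passed an adjusted p under 0.05. All estimates lie below 0, from -0.32 to -0.16, and 8 of the 23 settings passed.

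Summed levels of several cell type marker lists were lower in the same cKO libraries, although few single markers passed. Over all genes tested, 8715 of 17036 log2 fold changes were below 0. Endothelial markers, of the cell type that carries the deletion, summed to 7951 to 8988 normalized counts in cKO and 8981 to 10113 in WT, with 9 of 12 log2 fold changes below 0. 1 of the 12 passed: Flt1, for a VEGF receptor, fell by 0.34 on the log2 scale (limma adjusted p = 0.0417). Pericyte markers summed to 10160 to 11399 in cKO and 11625 to 12576 in WT, with 5 of 6 below 0 and 0 passing. Neuronal markers summed to 283015 to 301779 in cKO and 309129 to 321480 in WT, with 8 of 10 below 0 and 0 passing. Microglial markers summed to 6399 to 7311 in cKO and 7508 to 7979 in WT, with 7 of 9 below 0 and 0 passing. Oligodendrocyte precursor markers summed to 11983 to 12859 in cKO and 12885 to 14067 in WT, with 5 of 5 below 0 and 0 passing.

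Thus the sums of pericyte, neuronal, microglial and precursor markers did not overlap between the groups, and neither did the values of Slc36a1. Abundant genes weigh most in a sum: Rgs5, a pericyte marker, averaged 6865 normalized counts in cKO and 8132 in WT. Taken singly, 1 of 6 pericyte, 3 of 10 neuronal, 3 of 9 microglial and 1 of 5 precursor genes did not overlap. All of these were lower in cKO, where 3.72% of all genes tested were lower without overlap. Among the lists whose sums overlapped, 2 of 12 endothelial and 1 of 6 hippocampal genes were lower without overlap. Of 10 astrocyte genes 1 was lower and 1 higher without overlap, and all meningeal, myelin and choroid plexus genes overlapped. The sum over all genes did not overlap either, at 3.19153e+07 to 3.23495e+07 normalized counts in cKO libraries and 3.24045e+07 to 3.31231e+07 in WT libraries. Separation of a sum is therefore not particular to these lists. How often sums of other sets of genes separate was not tested. Meningeal markers ran the other way, at 8242 to 10079 in cKO and 6014 to 9818 in WT, with 9 of 10 above 0 and 0 passing. When the mean meningeal level was added to the model, the log2 fold change of Slc36a1 was -0.29 ± 0.0590 (limma adjusted p = 0.218). Astrocyte markers overlapped in their sums, at 153786 to 163170 in cKO and 152731 to 168429 in WT, but 3 of the 10 passed with limma: the water channel gene Aqp4 fell by 0.35 on the log2 scale (adjusted p = 0.00206), while S100b rose by 0.35 (adjusted p = 0.0141) and Gfap by 0.29 (adjusted p = 0.0420). Myelin markers summed to 21766 to 33469 in cKO and 21423 to 31982 in WT, with 9 of 9 above 0 and 0 passing. Those signs come from fits with sex as a term. The unadjusted mean sum was lower in cKO, at 27769 ± 6125 against 29138 ± 4492 in WT (SD). Choroid plexus markers summed to 595 to 33357 in cKO and 604 to 44169 in WT, with 7 of 7 above 0 in the same fits and 0 passing. Here too the unadjusted mean sum was lower in cKO, at 15158 ± 15816 against 16641 ± 18214 in WT (SD). The meningeal list was the only one added to the model, and the part of the other lists in the Slc36a1 difference was not tested. In whole tissue, fewer cells of a type and less RNA per cell cannot be told apart.

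The paralog Slc36a4 encodes PAT4, a carrier of high affinity for proline and tryptophan. It had 3235, 3239, 3330 and 3470 normalized counts in cKO replicates 1 to 4, against 3389, 3345, 3239, 3370 and 3335 in WT replicates 1 to 5. The groups overlapped, with cKO replicate 4 the highest of all 9 libraries and cKO replicate 1 the lowest. The means were 3319 ± 110 over 4 cKO libraries and 3335 ± 57.9 over 5 WT libraries (SD). Its log2 fold change of -0.028 ± 0.0407 did not pass (95% interval -0.12 to 0.060, limma adjusted p = 0.832), and the value of Slc36a1, -0.25, lay outside this interval.

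Within a library, the ratio of Slc36a1 to Slc36a4 needs no scaling between libraries. Per kb of exon, it was 0.862 to 0.968 in cKO libraries and 1.01 to 1.10 in WT libraries, with no overlap. The Slc36a1 libraries had already been seen not to overlap, so the ratio is not independent of that result. The other members of the family were scarce: Slc36a2 averaged 8.75 ± 2.7 normalized counts in cKO and 13.5 ± 5.94 in WT, and Slc36a3 was at 0 in every library. Of the 5668 stretches of 50 bases in Slc36a1 transcripts, 92 (1.62%) also occur in transcripts of another gene, most of them in the neighbouring Slc36a2.

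The promoters of Slc36a1, Rragb and Rragc are shown because they hold the E-box core CACGTG, and that of Flcn because its libraries did not overlap either and it holds none. Sequences are those of RefSeq on GRCm38.p6, from 250 bases before to 50 after the gene start, 5′ to 3′ on the gene's strand, and capitals mark the motif. They lie at chr11:55204090-55204389 (Slc36a1, plus strand), chrX:153139708-153140007 (Rragb, plus strand), chr4:123917183-123917482 (Rragc, plus strand) and chr11:59809990-59810289 (Flcn, minus strand).
Slc36a1: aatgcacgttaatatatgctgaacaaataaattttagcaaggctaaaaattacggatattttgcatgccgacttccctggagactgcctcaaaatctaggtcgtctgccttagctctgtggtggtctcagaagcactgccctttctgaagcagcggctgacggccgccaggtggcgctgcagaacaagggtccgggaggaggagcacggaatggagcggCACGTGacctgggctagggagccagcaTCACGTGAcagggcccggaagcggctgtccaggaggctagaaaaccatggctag
Rragb: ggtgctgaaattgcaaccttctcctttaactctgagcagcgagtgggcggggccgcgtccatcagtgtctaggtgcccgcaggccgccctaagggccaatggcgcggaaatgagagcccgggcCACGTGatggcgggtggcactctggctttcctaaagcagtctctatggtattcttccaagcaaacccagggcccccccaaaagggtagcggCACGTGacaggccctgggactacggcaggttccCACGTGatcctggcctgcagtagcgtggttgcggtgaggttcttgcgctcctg
Rragc: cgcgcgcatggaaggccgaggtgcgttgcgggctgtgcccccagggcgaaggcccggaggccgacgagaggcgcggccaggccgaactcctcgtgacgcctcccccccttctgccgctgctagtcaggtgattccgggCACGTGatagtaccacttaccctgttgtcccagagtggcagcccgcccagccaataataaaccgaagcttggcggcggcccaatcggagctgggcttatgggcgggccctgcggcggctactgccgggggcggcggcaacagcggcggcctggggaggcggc
Flcn: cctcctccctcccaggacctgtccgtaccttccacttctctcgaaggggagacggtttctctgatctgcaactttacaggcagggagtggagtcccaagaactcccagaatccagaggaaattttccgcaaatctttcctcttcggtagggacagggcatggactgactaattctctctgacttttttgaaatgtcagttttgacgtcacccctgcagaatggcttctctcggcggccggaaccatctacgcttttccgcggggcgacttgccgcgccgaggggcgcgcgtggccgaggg

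All 10 members had a promoter in the table, and 3 of the 10 held CACGTG on either strand, against 7.15% of 32851 promoters of the same length. The core contains a CG, and CG occurs 15, 18 and 32 times in the promoters of Slc36a1, Rragb and Rragc. The median of all promoters is 7, so these shares do not compare promoters of like CG content. In Slc36a1 the core begins 31 and 3 bases before the gene start, and the copy nearer to the start is part of the longer palindrome TCACGTGA, which 0.974% of all promoters hold. Rragb holds the core at 127, 36 and 3 bases before the start, and Rragc at 112 bases before it. None of the 10 held TGATGCAA, a C/EBP-ATF element found in 0.895% of promoters. Of the genes with the core, Slc36a1 passed, lower in cKO, while Rragb and Rragc did not pass.

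The Rag GTPase genes showed no difference past the threshold. Rraga, an intronless gene for RagA, held 3279, 3379, 3402 and 3346 normalized counts in cKO replicates 1 to 4, against 3544, 3647, 3510, 3406 and 3237 in WT replicates 1 to 5. Its cKO libraries lay inside the WT range. Their difference on the log2 scale was -0.056 ± 0.0468 (95% interval -0.16 to 0.045, limma adjusted p = 0.688).

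Rragb, the X-linked gene for RagB, a form that is abundant in neurons, held 2736, 2903, 2935 and 2960 normalized counts in cKO replicates 1 to 4, against 2670, 2813, 2923, 2892 and 2788 in WT replicates 1 to 5. The male of the WT group was the lowest library, and the groups overlapped. Its log2 fold change was 0.065 ± 0.0450 (95% interval -0.032 to 0.16, limma adjusted p = 0.619). The level of Rragb per kb of exon was 0.616 ± 0.0147 of that of Rraga in cKO and 0.583 ± 0.0347 in WT (SD), and these ratios overlapped too. Transcripts of Rraga and Rragb share no stretch of 50 bases, and neither do those of Rragc and Rragd.

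Rragc, for RagC, held 1776, 1916, 1829 and 1821 normalized counts in cKO replicates 1 to 4, against 1883, 1815, 1893, 1980 and 1862 in WT replicates 1 to 5. Here the lowest library was a cKO library and the highest a WT one, with wide overlap. The difference came to -0.017 ± 0.0466 on the log2 scale (95% interval -0.12 to 0.084, limma adjusted p = 0.921). An antisense lncRNA, Gm12905, overlaps Rragc at a mean of 34.9 normalized counts.

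Rragd, for RagD, whose gene is itself a known target of the TFE factors, held 3299, 3316, 3364 and 3648 normalized counts in cKO replicates 1 to 4, against 3461, 3474, 3474, 3449 and 3539 in WT replicates 1 to 5. cKO replicates 1 to 3 lay below the WT range and cKO replicate 4 above it. On the log2 scale the difference was -0.042 ± 0.0444 (95% interval -0.14 to 0.053, limma adjusted p = 0.759). Relative to Rragc per kb of exon, Rragd stood at 1.20 ± 0.0726 in cKO and 1.19 ± 0.0440 in WT.

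Flcn encodes folliculin, which promotes GTP hydrolysis by RagC and RagD. It held 1345, 1222, 1280 and 1254 normalized counts in cKO replicates 1 to 4, against 1137, 1159, 1164, 1152 and 1153 in WT replicates 1 to 5. Every cKO library lay above every WT library, and the WT libraries were tightly grouped. The gene (ENSMUSG00000032633, chromosome 11, 59682233 to 59700842 in GRCm39) averaged 1275 ± 52.3 in the 4 cKO libraries and 1153 ± 10.2 in the 5 WT libraries (SD).

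The log2 fold change of Flcn was 0.13 ± 0.0497 (95% interval 0.023 to 0.24), with an unadjusted p of 0.0205 and a limma adjusted p of 0.338, so it did not pass. Under the 22 alternatives the estimate ran from 0.079 to 0.19, and the lowest adjusted p was 0.108, in the model without sex. Slc36a1 and Flcn were the 2 of 10 members whose libraries did not overlap, where 6.29% of all genes tested did not. Higher in cKO without overlap were 2.58% of genes and lower 3.72%. An unadjusted p under 0.05 was found for the same 2 members, against 11.3% of all genes tested.

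**Figure D2:**
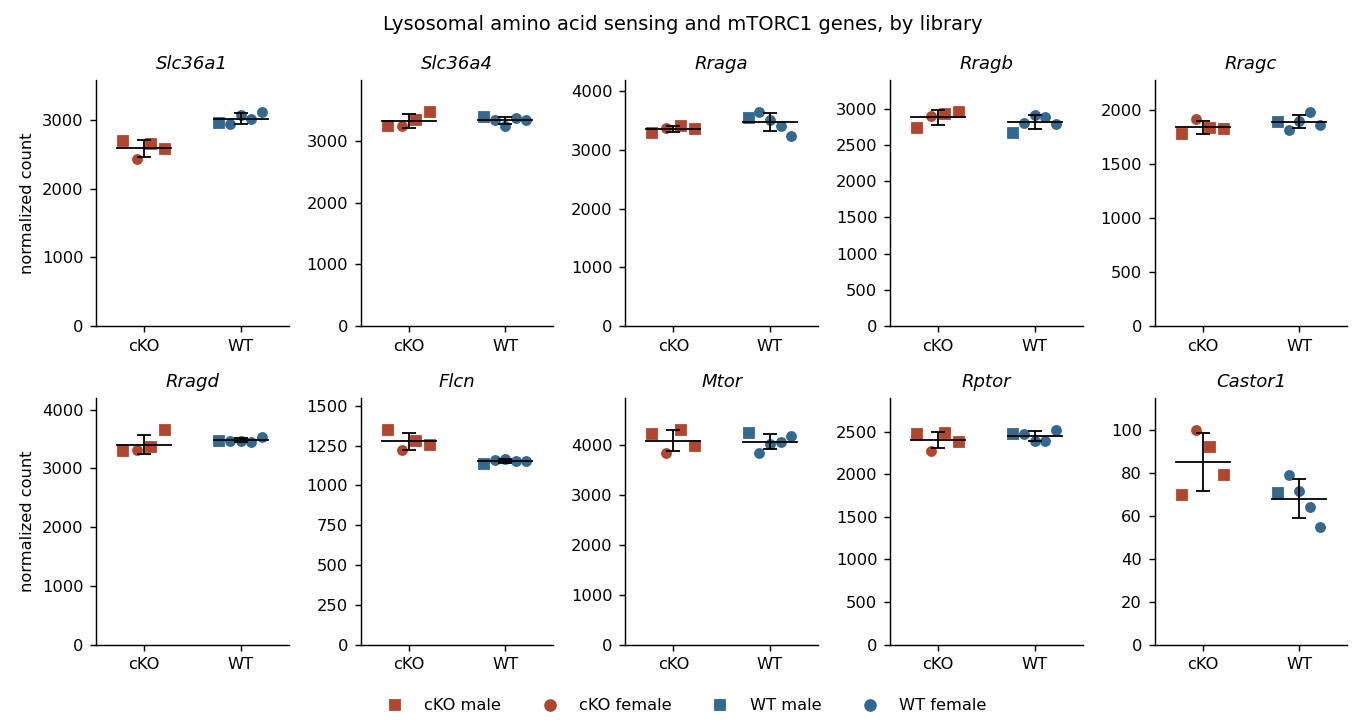
Normalized count (y axis, from 0) of each of the 10 genes in 4 cKO and 5 WT libraries. Points are libraries, squares males and circles females, and lines with bars are the mean ± SD. The cKO points lie below all WT points for Slc36a1 and above them for Flcn, and the groups overlap for the other 8 genes.

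Neither gene of the mTORC1 core passed. Mtor, for the kinase itself, held 4232, 3847, 4301 and 3982 normalized counts in cKO replicates 1 to 4, against 4253, 3853, 4032, 4061 and 4182 in WT replicates 1 to 5. The groups covered almost the same range, and the lowest library of each was a female. The log2 fold change was -0.049 ± 0.0442 (95% interval -0.14 to 0.046, limma adjusted p = 0.711), and it was 0.0043 in the model without sex.

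Rptor, for raptor, the subunit that binds the Rag dimer and the substrates, held 2467, 2274, 2482 and 2376 normalized counts in cKO replicates 1 to 4, against 2470, 2476, 2393, 2393 and 2515 in WT replicates 1 to 5. The only cKO female was the lowest library, and the other cKO libraries lay within or just under the WT range. Its log2 fold change was -0.062 ± 0.0435 (95% interval -0.16 to 0.032, limma adjusted p = 0.620). For Slc36a4, the Rag genes, Mtor and Rptor, the bounds of these intervals correspond to 0.897-fold at the lowest and 1.12-fold at the highest.

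Castor1 encodes a cytosolic arginine sensor that holds back GATOR2, an activator of the pathway, when arginine is short. It was far below the other members, at 69.6, 99.9, 91.9 and 79.2 normalized counts in cKO replicates 1 to 4, against 70.8, 78.9, 71.4, 64.3 and 54.8 in WT replicates 1 to 5. The 3 highest libraries were cKO libraries, but cKO replicate 1 lay inside the WT range. The log2 fold change was 0.38 ± 0.178 (95% interval -0.0050 to 0.76, limma adjusted p = 0.445). With 51 to 102 reads per library, counting alone gives an error of about 11.4% for this gene, against 1.56% to 2.87% for the other 9, and the SE of its genotype difference was the largest of the 10.

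**Figure D3:**
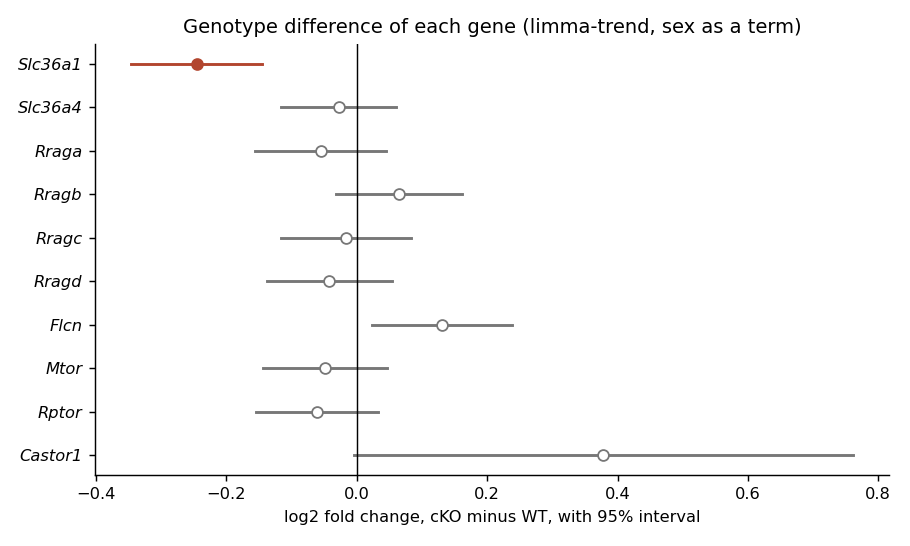
Log2 fold change of each of the 10 genes (cKO minus WT, x axis) with its 95% interval from limma-trend. The filled red point, Slc36a1 at -0.25, passed an adjusted p under 0.05. The interval of Castor1 is the widest, from -0.0050 to 0.76.

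Levels of different genes were compared only per length, with exon lengths from GENCODE M21. Rraga was the highest at 2072 ± 33 normalized counts per kb in cKO and 2144 ± 96.2 in WT, followed by Rragb at 1277 ± 44.7 in cKO and 1248 ± 44.0 in WT. Rragd was at 659 ± 31.6 in cKO and 673 ± 6.73 in WT, and Rragc at 549 ± 17.6 in cKO and 565 ± 18.0 in WT. The order thus put the genes for RagA and RagB above those for RagC and RagD.

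Slc36a4 followed per kb at 507 ± 16.8 in cKO and 510 ± 8.85 in WT, and Slc36a1 at 459 ± 21 in cKO and 536 ± 13.9 in WT. These were the only neighbours in the order whose libraries overlapped, with Slc36a1 below Slc36a4 in cKO and above it in WT. Mtor was at 405 ± 21 per kb in cKO and 403 ± 15.2 in WT, Flcn at 295 ± 12.1 in cKO and 267 ± 2.36 in WT, and Rptor at 178 ± 7.13 in cKO and 182 ± 4.04 in WT. Castor1 was the lowest at 54.1 ± 8.52 in cKO and 43.2 ± 5.74 in WT. The lengths are unions of all annotated exons, so the order depends on those gene models.

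**Figure D4:**
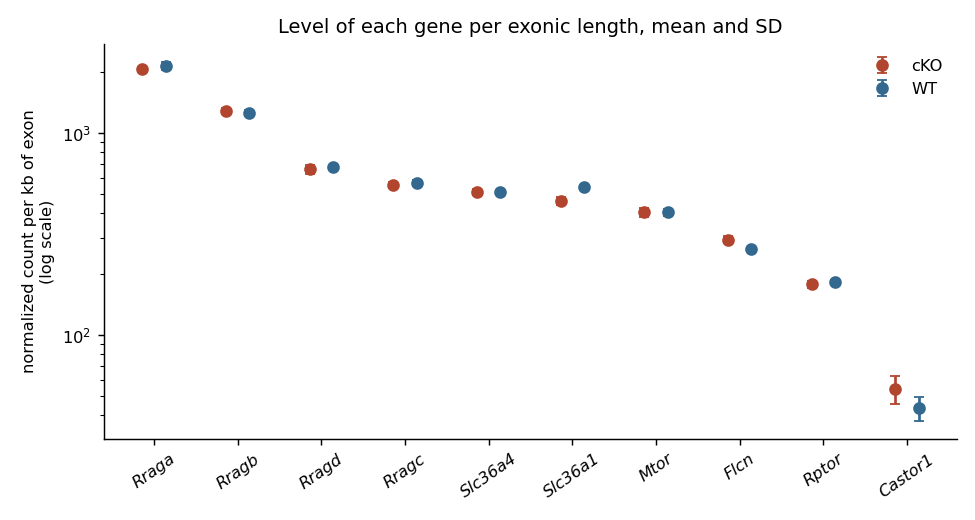
Normalized count per kb of exon (y axis, log scale) of the 10 genes, ordered from high to low by their mean over 9 libraries. Points are group means with SD bars (cKO n = 4, WT n = 5). Rraga, at 2072 in cKO, and Castor1, at 54.1 in cKO, mark the ends of the order.

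Neither sex nor its interaction with genotype gave a call among the 10 genes. Between females and males 0 of 10 passed limma, edgeR or DESeq2, where limma called 0.0528% of all genes tested. An unadjusted p under 0.05 was found for 1 of the 10, against 6.73% of all genes. That gene was Mtor, with a log2 difference of -0.096 ± 0.0442 (female minus male, limma adjusted p = 0.739). The X-linked Rragb differed by 0.056 ± 0.0450 (adjusted p = 0.815). In the interaction 0 of 10 passed limma, edgeR or DESeq2, where limma called 0.00587% of all genes, and 0 had an unadjusted p under 0.05, against 7.9%. For Slc36a1 the genotype difference was -0.32 ± 0.0560 among females and -0.16 ± 0.0686 among males, and the difference between these was -0.16 ± 0.0824 (limma interaction adjusted p = 0.636). With 1 cKO female and 1 WT male, each such value rests on a single animal on one side.

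The genes whose pattern over the 9 libraries lay nearest to that of Slc36a1 were found by the root mean square difference of log2 values, each gene centred on its own mean, among 12615 genes. They were Ciapin1, of iron-sulfur cluster assembly (0.0429), Prkab2, for a regulatory subunit of the energy sensor AMPK (0.0460), Vegfa, for the vessel growth factor (0.0477), Itga6, for a laminin-binding integrin (0.0482), and Timm17a, of mitochondrial protein import (0.0493). Slc36a1 itself varied by 0.121 on this measure. Among these 5 genes Vegfa passed, with a log2 fold change of -0.31 (limma adjusted p = 0.0220), and the adjusted p-values of the others ran from 0.0758 to 0.164. All 5 were picked for a pattern that includes the split by genotype, so these values are not independent of the call of Slc36a1.

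The rest of the pathway was read from 11 lists with 106 genes, of which 103 were tested. 0 of 103 passed in either direction with limma, edgeR or DESeq2, and 7 had an unadjusted p under 0.05 with limma, which is 6.80% against 11.3% of all genes tested. The median log2 fold change was 0.016, against -0.0034 over all genes, with 60 genes above 0 and 43 below. In 5 of the 103 (4.85%) the libraries did not overlap, below the 6.29% of all genes tested. Of these, 4 were higher in cKO and 1 lower, where 2.58% of all genes were higher and 3.72% lower. These were Sesn2, Maf1, Sgsh and Cln3, the last pair for a heparan sulfatase and for the membrane protein lost in juvenile Batten disease, and Atp6v0a2, which was lower. From each list the 2 genes with the smallest p are given here.

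At the lysosomal membrane, Atp6v0a2, for a subunit of the proton pump that acidifies lysosomes and Golgi, was at 1746 ± 92.7 normalized counts over 4 cKO libraries and 1932 ± 37.4 over 5 WT libraries (SD), with every cKO library below every WT library. Its log2 fold change of -0.18 ± 0.0481 did not pass (limma adjusted p = 0.163). Of 18 V-ATPase genes tested 0 passed, with a median of -0.021, and Atp6v0e was at 0.13 ± 0.0730. Of 5 Ragulator genes, for the scaffold that anchors the Rag dimers, 0 passed, with a median of -0.022, Lamtor1 at 0.053 ± 0.0534 and Lamtor2 at -0.039 ± 0.0583. Of 7 lysosomal export genes 0 passed, with a median of 0.023, the peptide and histidine carrier Slc15a3 at 0.26 ± 0.217 and Mfsd1, for a lysosomal dipeptide carrier, at 0.073 ± 0.0501. The lysosomal glutamine exporter gene Slc38a7, of the same family as the deleted gene, was at 1411 ± 38.1 normalized counts in cKO and 1400 ± 60.2 in WT (SD).

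Among the sensors, Sesn2, for the leucine sensor sestrin 2, was at 696 ± 15.4 normalized counts over 4 cKO libraries and 622 ± 38.9 over 5 WT libraries (SD), and every cKO library lay above every WT library. Its log2 fold change was 0.18 ± 0.0678 (limma adjusted p = 0.325), and that of Castor2, for the partner of CASTOR1, was -0.11 ± 0.0577. 0 of 6 sensor genes passed, with a median of 0.012. Of 5 GATOR2 genes 0 passed, with a median of 0.024, Wdr24 at 0.11 ± 0.0709 and Sec13 at -0.046 ± 0.0512. Of 7 genes of GATOR1, the GTPase activator for RagA and RagB, and of its anchor KICSTOR 0 passed, with a median of 0.019, Kics2 at -0.16 ± 0.0849 and Nprl3 at 0.11 ± 0.0785.

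Downstream, 0 of 5 genes of folliculin partners and TFE factors passed, with a median of 0.041. Tfeb was at 0.27 ± 0.125 (limma adjusted p = 0.441) and Tfe3 at 0.041 ± 0.0621. Of 24 lysosomal genes of the CLEAR network, the set that TFEB controls, 0 passed, 17 were above 0 and 7 below, with a median of 0.039. Ctsf, for cathepsin F, was at 0.15 ± 0.0468 (adjusted p = 0.246) and Neu1, for a lysosomal sialidase, at 0.13 ± 0.0588 (adjusted p = 0.438). Transcript levels do not show the activity of mTORC1, which acts by phosphorylation.

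Of 10 other mTOR complex genes 0 passed, with a median of -0.0014, Tti2, for a chaperone of the kinase, at 0.17 ± 0.0720, and Mlst8, for a subunit shared by both mTOR complexes, at -0.071 ± 0.0489. Of 5 genes of the TSC complex and Rheb, the switch through which growth factors act, 0 passed, with a median of 0.024, Rhebl1 at 0.28 ± 0.122 and Tbc1d7 at -0.061 ± 0.0740. Of 11 mTORC1 substrate genes 0 passed, with a median of 0.011. Maf1, for the repressor of RNA polymerase III, was at 1617 ± 66.5 normalized counts over 4 cKO libraries and 1461 ± 40.1 over 5 WT libraries (SD), a log2 fold change of 0.15 ± 0.0509 (limma adjusted p = 0.299). Eif4ebp1, for a repressor of cap-dependent translation, was at 0.35 ± 0.176 (adjusted p = 0.473).

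**Figure D5:**
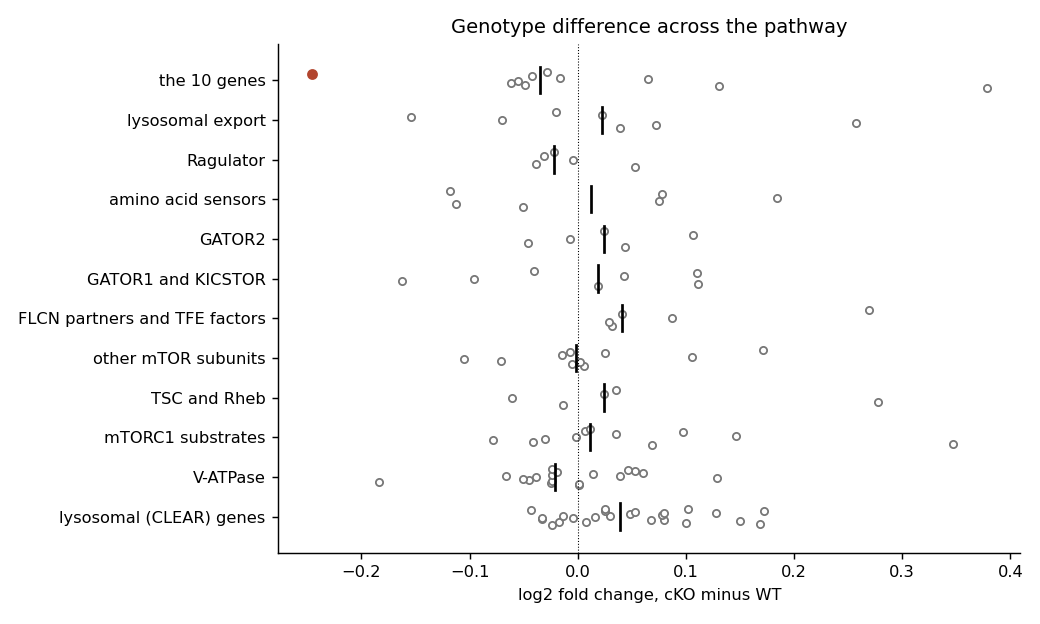
Log2 fold change (cKO minus WT, x axis) of each gene tested in the 10 genes and the 11 further lists (rows). Open points did not pass an adjusted p under 0.05, the filled red point, Slc36a1 at -0.25, did, and vertical bars are list medians, from -0.035 for the 10 genes to 0.041 for folliculin partners and TFE factors.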

How the data were processed

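Total RNA of 9 hippocampi was made into directional libraries, all prepared at the same time, per the labels' protocols. The submitters' processing notes name STAR 2.7.10b, DESeq2 1.41.8, cutadapt 4.4, FastQC 0.12.1 and the build GRCm39. How reads were counted, and whether by strand, is not stated, and reads of a gene and its antisense partner therefore cannot be told apart. The deposited signal values behave as read counts that the authors scaled by 1 factor for each library, judging by their steps. Dividing by the step of each library gave whole reads within 0.1 for at least 99.96% of values above 0. In cKO replicate 1 and WT replicates 1 and 4 that step lies so close to 1 that rounding hardly differs from it. Between libraries of 1 group the chi-square per gene was 3.62 to 12.9, and none was treated as a copy.

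limma-trend (limma 3.58.1, R 4.3.3) was run on log2(normalized count + 1), modelling genotype and sex, over 17036 genes with a mean of at least 10, with Benjamini-Hochberg adjusted p under 0.05 as threshold. Fold changes are on that scale, which understates low genes. edgeR 4.0.16 and DESeq2 1.42.0 on recovered reads and the other alternatives are in the closing section. Scripts were tested on simulated data. Replicates are numbered in the order of their records. Members and lists were chosen with earlier results of these data known. The rule named all members, per list the passing genes or else the 2 of smallest p, and 5 genes nearest to Slc36a1 (mean of at least 50, no sex-linked genes or identifiers). Slc36a2, Slc36a3, Slc38a7, Sgsh, Cln3, Flt1, Aqp4, S100b and Gfap fall outside the rule and were named after their values were seen. Samtor was matched by the older symbol Bmt2. Sequences are from RefSeq. Python 3.11.15, pandas 2.3.3, numpy 2.4.6 and matplotlib 3.10.9 were used.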

Additional observations from a re-analysis of the deposited data

Results flagged for a closer look

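In 5 of 66 sets of libraries (the 10 members, Slc38a3 and the 22 genes named from the pathway lists, in each genotype) the highest or lowest library stood apart from the others by Dixon's test at 95%, which chance does in about 1 in 20. Rragd was at 3539 normalized counts in WT replicate 5, against 3449 to 3474 in the other WT libraries. Sec13 was at 1576 in cKO replicate 2, the only cKO female, against 1366 to 1397 in the other cKO libraries. Tfeb was at 224 in WT replicate 2, against 176 to 187 in the other WT libraries. Rhebl1 was at 168 in cKO replicate 3, against 211 to 217 in the other cKO libraries. Atp6v0e was at 482 in the same cKO library, against 529.9 to 539.6 in the others.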

How the results depend on the processing

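Of 10 members, 1 passed in the genotype comparison, and 0 did with no filter on low values, edgeR, females only, males only, the meningeal term, without WT replicates 2 and 5, and without any 1 library (0 to 0). Of all genes, 59 passed, against 199 with DESeq2, 216 with no sex term, 3 in males only, 11 in females only, 5 with the meningeal term, 15 without WT replicates 2 and 5, and 10 to 65 with 1 library left out. Between the sexes 9 genes passed, 24 with DESeq2 and 9 to 16 with 1 library left out. In the interaction 1 gene passed, 919 with no filter on low values, 7 with DESeq2, 70 with the meningeal term and 0 without WT replicates 2 and 5. The interaction could not be fitted without cKO replicate 2 or WT replicate 1. Differences of mean log2 values were -2.66 and -3.35 for Slc38a3, and -0.32 and -0.16 for Slc36a1, in females only and males only, where the exact test cannot pass (p = 0.2 and 0.25). The causes of these shifts were not tested.

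For the 9 members other than Slc36a1, 4 of 198 alternative values changed sign and 0 passed. Mtor was at 0.0043 with no sex term. Rragc was at 0.022 in females only, 0.028 with the meningeal term and -0.058 to 0.022 with 1 library left out. Of 484 values of the 22 genes named from the pathway lists 9 changed sign and 0 passed. In females only Lamtor2 was at 0.039 and Sec13 at 0.032. In males only Wdr24 was at -0.030 and Nprl3 at -0.0083. Tfe3 was at -0.025 with the meningeal term. With 1 library left out, Lamtor2 ran from -0.12 to 0.039, Sec13 from -0.13 to 0.032, Wdr24 from -0.030 to 0.24 and Nprl3 from -0.0083 to 0.22. Here and for Rragc, the end of the range that changed sign repeats the value in females only or males only. The counts of sign changes include both. No paired analysis was possible because the numbers in the labels name animals and none is shared between the genotypes. Depth limits Castor1 most, and intervals from counting cover counting error only.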
